A study of Mus musculus with 23 samples.

Results

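Conventional CD4 T cells of the mouse lymph node (LN) were defined by marker transcripts in single-cell RNA sequencing libraries. A droplet barcode was kept when it held at least 200 genes and at most 10% mitochondrial unique molecular identifiers (UMIs, each standing for 1 captured transcript). It entered the CD4 gate with at least 1 UMI of Cd4, at least 1 UMI of the CD3 genes Cd3d, Cd3e and Cd3g together, and 0 UMIs of the CD8 genes Cd8a and Cd8b1, the B cell gene Cd79a and the regulatory T cell gene Foxp3. The gate took 3066 cells, out of 41204 LN barcodes past the filters, 43474 LN barcodes in all and 139967 barcodes in the 16 expression libraries of the series. All mice were labelled C57BL/6 and 2 months of age, and the edited lines were made from C57BL/6N zygotes. LN libraries came from wild-type mice (WT, 2 libraries), from mice with 1 Stat5b allele edited to encode phenylalanine in place of a tyrosine (Y665F het, 3 libraries) and from mice with both alleles edited (Y665F homo, 2 libraries). Spleen libraries came from WT mice, from Y665F mice and from mice with histidine in place of the same tyrosine (Y665H), with 1 library each and no zygosity given. The Y665F edit was made with Cas9 and a donor oligonucleotide and is carried by every cell of these mice, not by T cells alone. Zygosity stands only in the sample titles. The study describes a sample combined from several mice of a group in a figure legend that names lymph nodes. The title of that figure names the spleen, so whether LN libraries were pooled is unclear. The labels do not tie libraries to mice, so p-values measure the spread between libraries. In the edgeR test this spread is moderated with that of all genes, so it is not measured in the tested gene alone.

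CD4 T cells leave the thymus as naive cells, recirculate through lymph nodes, and become helper cells after they meet antigen. Their survival and growth depend on cytokines of the common gamma chain, such as interleukin-2 and interleukin-7, which act through the kinases JAK1 and JAK3 on the transcription factors STAT5A and STAT5B. STAT5 is known for inducing survival and feedback genes such as Bcl2, Pim1, Cish and the SOCS genes, and for restraining the follicular helper program led by BCL6.

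The edited bases are shown because every comparison rests on them. The Y665 codon, in a coding sequence of 786 codons, lies in exon 16 of 19 of Stat5b, on the minus strand at chr11:100787291-100787293 (GRCm38). The lines give the coding strand of the reference around the codon, the same bases of the donor oligonucleotide, and the plus-strand target of the guide RNA at chr11:100787287-100787309. Capitals mark the codon bases that differ and, in the guide line, the PAM.
reference, chr11:100787270-100787314, minus strand: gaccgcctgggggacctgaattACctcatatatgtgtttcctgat
Y665F donor, same bases: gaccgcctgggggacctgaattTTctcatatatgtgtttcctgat
guide target with PAM: tgaggtaattcaggtcccccAGG
Counted from 1 at the 5′ end of the printed stretch, donor and reference differed by A23T and C24T, which turns the codon TAC into TTT. The methods also name a silent C-to-G change that removes the PAM, and the listed donor does not show it in this stretch.

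Libraries differed in depth. The gate held 375 and 853 cells in the WT libraries, 778, 441 and 117 in the het libraries, and 113 and 389 in the homo libraries. Het replicate 3 and homo replicate 1 were shallow, with medians of 440 and 436 UMIs per gate cell against 996 to 3191 in the other 5 libraries, and with 56759 and 52686 UMIs in all against 421000 to 2566970. A single UMI was therefore worth 17.6 and 18.98 CPM (UMIs of a gene per 1000000 UMIs of the gate in that library) in these shallow libraries, and 0.390 to 2.38 CPM in the others. At most 1 barcode of the gate was shared by any of the 21 pairs of libraries. Cells just inside the filter on genes were found in the shallow libraries, where 7 and 9 gate cells held fewer than 25 genes above the minimum.

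The 9 markers of conventional CD4 T cells that the rule did not use fitted the label in part. Zbtb7b, the transcription factor that fixes the CD4 lineage, lay between 38.0 and 74.4 CPM in the CD4 gate and between 0 and 3.78 CPM in the CD8 gate (10832 cells with CD3 and Cd8a or Cd8b1). Cd40lg, the helper ligand for B cells, lay between 35.2 and 114 CPM in 6 libraries and at 0 in homo replicate 1, against 1.496 to 9.31 CPM in the CD8 gate. Cd28, Cd5 and Tcf7 were higher in every CD4 gate library than in any CD8 gate library. Il7r was lower in the CD4 than in the CD8 gate of every library but homo replicate 2 (171 to 504 CPM against 274 to 514 CPM). The T-cell receptor genes Trac, Trbc1 and Trbc2 overlapped between the 2 gates. Cd4 itself, which chose the cells, is given as a description. Its level was 1074 and 891 CPM in WT libraries, 506, 725 and 2255 CPM in het libraries, and 2278 and 1089 CPM in homo libraries, with the highest values in the shallow libraries. A Cd4 UMI was seen in 3.83% to 25.3% of barcodes with CD3 and without Cd79a (median depths of 452 to 3470 UMIs), against 0% to 0.367% of B cell barcodes (297 to 1941 UMIs).

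Transcripts of other cells were summed in the CD4 gate and set against the CD8 and B cell gates. Regulatory, gamma-delta, natural killer and myeloid cells had no gate of their own in this comparison. The 13 CD8 and cytotoxic markers outside the rule summed to 113 to 282 CPM, against 1590 to 4664 CPM in the CD8 gate, and 19 B cell markers to 249.7 to 916 CPM, against 49791 to 56782 CPM in B cells. The 9 gamma-delta T cell markers summed to at most 9.87 CPM with Sox13 at 0, the 9 natural killer markers to 42.3 to 194 CPM with Zbtb16, Klra4 and Klra8 at 0, and the 16 myeloid markers to 211 to 329 CPM (197 to 225 CPM in the CD8 gate) with 7 of them, among them Cd14 and C1qa, at 0 in all libraries. The 13 regulatory T cell markers besides Foxp3 summed to 591 and 777 CPM in WT, to 443, 532 and 881 CPM in het, and to 797 and 510.2 CPM in homo libraries, with overlapping groups. They summed to 149.9 to 268 CPM in the CD8 gate, below every CD4 library, and to 287 to 470.4 CPM in B cells, a range that held het replicate 1 only. In sums over a gate, fewer cells of a subset and less RNA per cell cannot be told apart.

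The first question was how CD4 T cells with both alleles edited differed from WT cells. Dapl1, a gene typical of naive T cells, the survival kinase gene Pim1, the coronin gene Coro2a and the myosin gene Myo6 rose. Itm2a, Izumo1r and Tnfsf11, which encodes RANK ligand, fell. Counts summed per library were fitted for all 7 libraries together with the edgeR quasi-likelihood test, and calls needed a log2 fold change beyond 1 in either direction with a p below 0.05 after Benjamini-Hochberg adjustment. Of 6384 genes tested 29 passed (0.454%), of which 19 were higher in homo (0.298%) and 10 lower (0.157%), while 533 had an unadjusted p under 0.05. In 27 of the 29, both homo libraries lay on the same side of both WT libraries, as they did for 37.9% of all genes tested.

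These calls leaned on the deeper homo and WT libraries. Without homo replicate 2 only 2 genes were called, and 0 of them were among the 29. A fit without a homo or WT replicate keeps 1 library of that group, so its spread comes from the libraries of the other groups. Without homo replicate 2 the median log2 fold change of all genes was −0.27. Of 25 named genes 16 then had a smaller log2 fold change, 7 a larger one and 2 (Hist1h1e and Irf7) one of the other sign. Smaller values were between 0.15 for Cd55 and 2.33 for Coro2a among genes that rose, with 1.56 for Myo6, 0.82 for Dapl1 and 0.58 for Lgals1. Larger ones were 2.11 for Ift27 and 1.99 for Rcn1 and, among genes that fell, −1.73 for Itm2a, −2.22 for Hsph1, −2.32 for Skil, −1.71 for Tespa1 and −7.85 for Tnfsf11. Homo replicate 1, the only homo library left in that fit, held no UMI of Tnfsf11, so its value measures no size. It held 1 UMI of Skil, 2 of Hsph1 and 3 each of Tespa1 and Itm2a. Without WT replicate 2 there were 20 calls, 13 of them shared, and without the shallow homo replicate 1 there were 28, 24 of them shared. Leaving out both shallow libraries gave 32 calls, of which 26 were shared. DESeq2 called 2 genes, Dapl1 and Ly6c1.

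Dapl1 (chr2:59484653-59505020) rose with either genotype. WT libraries held 226 and 239 CPM, het libraries 622, 614 and 546 CPM, and homo libraries 475 and 839 CPM. Every Y665F library lay above both WT libraries, and het and homo overlapped. The log2 fold change was 1.71 ± 0.19 (SE) for homo (edgeR adjusted p = 2.43e-08) and 1.45 ± 0.16 for het (edgeR adjusted p = 4.95e-08). In het the call held under all 19 alternative settings, with log2 fold changes from 1.39 to 1.65. In homo it held under 18 of 19 and was lost without homo replicate 2, where the log2 fold change was 0.82.

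Ly6c1, a surface protein of memory and some naive T cells, was at 64.1 and 84.7 CPM in the WT libraries, 165, 137 and 176 CPM in the het libraries and 228 and 249 CPM in the homo libraries. The 3 groups did not overlap and stood in the order WT, het, homo, though homo against het did not pass (edgeR adjusted p = 0.443). The share of all genes in this order was not counted. Its log2 fold change was 1.69 ± 0.22 for homo (edgeR adjusted p = 1.41e-06) and 1.06 ± 0.17 for het (edgeR adjusted p = 0.000134). Of its 31-base words, 57.1% also occur in other genes, so its reads cannot be assigned with certainty.

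Coro2a, an actin-binding coronin, measured 4.75 and 11.5 CPM for WT, 37.4, 36.4 and 35.2 CPM for het and 56.9 and 61.1 CPM for homo. The groups again followed the order WT, het, homo without overlap, with log2 fold changes of 2.67 ± 0.45 in homo (edgeR adjusted p = 0.000309) and 1.99 ± 0.34 in het (edgeR adjusted p = 0.000307). Homo against het did not pass (edgeR adjusted p = 0.893). WT replicate 1, het replicate 3 and homo replicate 1 held 2, 2 and 3 UMIs of Coro2a. Myo6, a myosin that moves toward the minus end of actin, was counted at 7.13 and 4.94 CPM in WT cells, 17.5, 48.9 and 0 CPM in het cells and 18.98 and 63.5 CPM in homo cells. Its homo libraries lay above WT, at a log2 fold change of 3.41 ± 0.64 (edgeR adjusted p = 0.00175), whereas het replicate 3 held no UMI of it and the homo replicate 1 value is 1 UMI. Pdlim4, an actin-linked adaptor, rose from 80.8 and 74.9 CPM to 209 and 195 CPM between WT and homo libraries, with het between them at 118, 120.4 and 141 CPM. Its homo against het difference did not pass either (edgeR adjusted p = 0.376). S1pr4, a receptor for the lipid sphingosine 1-phosphate, rose from 80.8 and 82.3 CPM to 133 and 214 CPM, also with no overlap, and its log2 fold change was 1.36 ± 0.23 (edgeR adjusted p = 0.000309). It was called under 16 of 19 alternatives, with log2 fold changes from 0.50 to 2.38.

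Pim1 (chr17:29490753-29496112) separated homo from both other genotypes. It was found at 85.5 and 132 CPM in WT, 116, 130.4 and 211 CPM in het and 247 and 315 CPM in homo libraries. Both homo libraries lay above all others, and het overlapped WT. The log2 fold change was 1.42 ± 0.20 against WT (edgeR adjusted p = 1.77e-05) and 1.27 ± 0.19 against het (edgeR adjusted p = 6.82e-05), while het against WT gave 0.15 ± 0.17 (edgeR adjusted p = 0.964). Lgals1, which encodes galectin-1 of activated T cells, measured 126 and 104 CPM for WT, 134, 204 and 370.0 CPM for het and 189.8 and 285 CPM for homo, a log2 fold change of 1.33 ± 0.24 in homo (edgeR adjusted p = 0.000762). Its highest value came from the shallow het replicate 3. It was called under 12 of 19 alternatives, and its log2 fold change was 0.83 among cells without UMIs of Il2ra, Ikzf2 or Ctla4, 0.57 among cells without UMIs of other cell types and 0.02 among cells with 2 or more Cd4 UMIs.

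The further genes that rose in homo were Pde2a, Ift27, Rcn1, Cd55, Cmtm7, Rtp4, Irf7, Hist1h1e, Gimap5, H2-Q6 and 1 gene known by number only. Gimap5 and H2-Q6 were named to complete this count. Ift27, a transport protein of cilia, was at 23.8 and 17.3 CPM in WT and 94.9 and 61.1 CPM in homo libraries. Rcn1, a calcium-binding protein of the endoplasmic reticulum, was at 21.4 and 20.6 CPM in WT and 94.9 and 63.5 CPM in homo libraries, and Cd55, which protects cells from complement, at 28.5 and 30.4 CPM and 37.96 and 89.3 CPM. None of these 3 overlapped between WT and homo libraries, but the shallow homo replicate 1 held only 5, 5 and 2 UMIs of Ift27, Rcn1 and Cd55. Pde2a, an enzyme that breaks down cyclic nucleotides, shares 90.9% of its 31-base words with other genes and is uncertain. Irf7 and Hist1h1e overlapped between homo and WT libraries, and without homo replicate 2 their log2 fold changes were −1.01 and −0.94.

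Among the genes that fell, Itm2a (chrX:107397099-107403376) fell to like levels in het and homo. It encodes a membrane protein that is high in thymocytes and young T cells. WT libraries held 164 and 165 CPM, against 59.6, 65.2 and 52.9 CPM in het and 56.9 and 68.2 CPM in homo libraries. All 5 Y665F libraries lay below both WT libraries, and het and homo overlapped. The log2 fold change was −1.25 ± 0.26 in homo (edgeR adjusted p = 0.00885) and −1.35 ± 0.16 in het (edgeR adjusted p = 2.73e-07).

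Izumo1r, a folate receptor family member of regulatory and antigen-experienced T cells, was at 264 and 244 CPM in WT, 141, 103 and 194 CPM in het and 114 and 91.7 CPM in homo libraries. Every Y665F library was below WT. The log2 fold change in homo was −1.36 ± 0.24 (edgeR adjusted p = 0.000669), and among cells without a UMI of the regulatory T cell genes Il2ra, Ikzf2 and Ctla4 it was −1.83 and also called. Among cells with 2 or more Cd4 UMIs it was −0.84 and not called. In het it was −0.87 ± 0.15, which passed the adjusted p (0.000233) and not the fold limit.

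Tnfsf11 (chr14:78277445-78308043), whose product RANK ligand acts on dendritic cells and lymph node stroma, was at 28.5 and 37.8 CPM in WT, 13.6, 15.05 and 17.6 CPM in het and 0 and 2.35 CPM in homo libraries. The groups did not overlap. The homo value rests on 1 UMI in 477991, against 58 in 1636713 in WT, a ratio of 0.0590 (exact 95% interval 0.00147 to 0.342, counting error only), with an edgeR adjusted p of 0.0365. This call was lost without WT replicate 2 and without het replicate 2, as was that of Myo6 without het replicate 2. Tnfsf11 was called under 7 of 16 alternatives, and Myo6 under 14 of 16.

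Skil, a repressor of TGF-beta signalling, and Tespa1, an adaptor of T-cell receptor (TCR) signalling, were low in homo alone. Skil was at 80.8 and 83.9 CPM in WT, 76.7, 71.5 and 70.5 CPM in het and 18.98 and 23.5 CPM in homo libraries, where it fell by a log2 fold change of −1.79 ± 0.38 (edgeR adjusted p = 0.00885). Tespa1 measured 157 and 165 CPM, 150.4, 144 and 141 CPM and 56.9 and 70.5 CPM in the same order, with −1.18 ± 0.26 (edgeR adjusted p = 0.0114). For both, het lay close to WT and well above homo. Rgs1, which damps chemokine receptor signals, the stress gene Ddit4, the chaperone gene Hsph1, Tnfaip8 and 1 gene known by number only also fell. Calls of Tespa1, Ddit4 and Hsph1 were lost without homo replicate 1, and those of Skil, Tespa1, Rgs1, Ddit4, Hsph1 and Tnfaip8 without WT replicate 2. Their log2 fold changes stayed below 0 under all alternatives. The values nearest to 0 were −1.07 for Tespa1, −0.78 for Ddit4, −0.95 for Hsph1, −1.49 for Skil, −0.74 for Rgs1 and −0.66 for Tnfaip8.

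**Figure D1:**
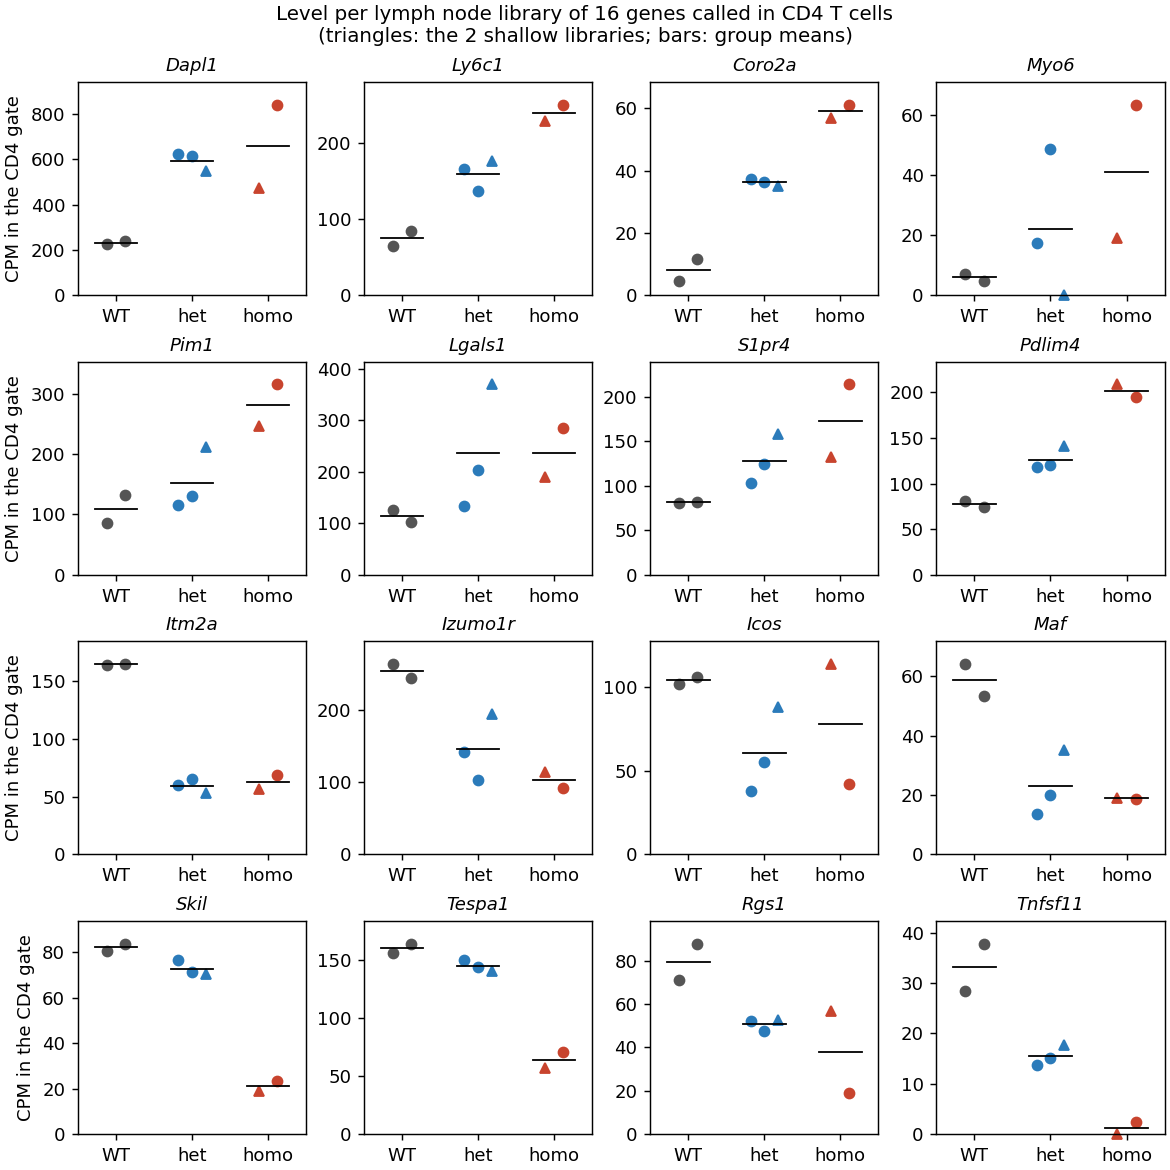
Level of 16 genes called in at least 1 comparison, in CPM of the CD4 gate on linear axes from 0, for each of the 7 LN libraries. Circles are libraries, triangles the 2 shallow libraries (het replicate 3 and homo replicate 1) and bars group means. Dapl1, Ly6c1 and Coro2a lie higher and Itm2a lower in all 5 Y665F libraries than in both WT libraries, while Skil and Tespa1 are low in homo libraries only.

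The second question was what a single edited allele did. In het cells Dapl1, Coro2a, Ly6c1, Myo6 and Trim59 rose, and Maf, Icos, Itm2a, Hivep3 and Scd2 were among the genes that fell. Of the 6384 genes 17 passed (0.266%), 6 of them higher in het (0.0940%) and 11 lower (0.172%), with 406 at an unadjusted p under 0.05. Groups did not overlap for 11 of the 17, against 21.6% of all genes tested. Homo and het were compared with the same WT libraries, so their values stand side by side and are not independent. Without het replicate 1, the deepest library, there were 6 calls, 3 of them shared, and without WT replicate 2 there were 11, 8 of them shared. Without WT replicate 1 there were 41 and without homo replicate 2 there were 31. DESeq2 called Dapl1 alone.

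Maf, a transcription factor of follicular helper and other effector cells, was at 64.1 and 53.5 CPM in WT, 13.6, 20.1 and 35.2 CPM in het and 18.98 and 18.8 CPM in homo libraries. All Y665F libraries lay below WT, with 2 UMIs of Maf in het replicate 3 and 1 in homo replicate 1. The log2 fold change was −1.76 ± 0.27 in het (edgeR adjusted p = 8.57e-05) and −1.53 ± 0.46 in homo, which did not pass (edgeR adjusted p = 0.171). Icos, a costimulatory receptor of helper cells, fell in het, from 102 and 106 CPM in WT to 38.2, 55.2 and 88.1 CPM, a log2 fold change of −1.17 ± 0.20 (edgeR adjusted p = 0.000295). The homo libraries, at 114 and 42.3 CPM, lay on both sides of WT.

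Trim59, a ubiquitin ligase, rose from 40.4 and 37.02 CPM in WT to 84.5, 80.3 and 70.5 CPM in het (log2 fold change 1.20 ± 0.21, edgeR adjusted p = 0.000485). Hivep3, a zinc finger protein, went from 57.01 and 43.6 CPM to 16.4, 18.8 and 17.6 CPM, and Scd2, a fatty acid desaturase, from 45.1 and 37.8 CPM to 12.1, 13.8 and 17.6 CPM. In both the 3 het libraries lay below WT, and the 2 homo libraries differed from each other. Het replicate 3 held 1 UMI of each gene, and homo replicate 1 held 4 UMIs of Hivep3 and 2 of Scd2. How close libraries of a group lie can therefore not be judged for these 2 genes. Cd74, the invariant chain of MHC class II, was called lower in het, with 199.5 and 57.6 CPM in WT, 15.6, 25.1 and 176 CPM in het and 56.9 and 14.1 CPM in homo libraries, and its groups overlapped. It is a marker of B cells and dendritic cells, and the B cell markers of the gate summed to 577 and 285 CPM for WT, to 249.7, 269.6 and 916 CPM for het, and to 379.6 and 329 CPM for homo. Among cells without UMIs of other cell types its log2 fold change was −1.15 and was not called. The histone gene Hist1h1b, Socs3 and Tnfrsf4 fell with overlapping groups as well, as did Marcksl1, and Kcna3 fell without overlap. Marcksl1 and Kcna3 were named to complete the count, and 1 gene known by number only rose. Tnfrsf4 was called under 5 of 17 alternatives, with a log2 fold change of −0.17 without WT replicate 2 and −0.43 without het replicate 1.

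The third question was whether 2 edited alleles differed from 1. In homo against het 6 genes passed (0.0940%), with 351 at an unadjusted p under 0.05. Pim1, Hist1h1b and Hist1h2ae were higher in homo, and Skil, Tespa1 and Ddit4 lower. Only Pim1, Skil and Tespa1 did not overlap between the groups, against 21.1% of all genes tested. The replication-dependent histone Hist1h1b was at 29.2, 35.1 and 88.1 CPM in het and 18.98 and 162 CPM in homo, so that homo replicate 2 alone was high. With edgeR 0 genes were called without homo replicate 2 (505 at an unadjusted p under 0.05) and 0 without het replicate 1 (266), and without homo replicate 1 the calls of Skil, Tespa1 and Ddit4 were lost. DESeq2 called 0 genes, with 27 at an unadjusted p under 0.05.

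Naive and quiescence genes were taken as a list of 16, all of them tested. Dapl1 rose in both genotypes (0.298% of all genes were called higher in homo and 0.0940% in het) and no member was called lower. Fitted values were above 0 for 10 of 16 members in homo and 13 of 16 in het, with median log2 fold changes of 0.07 in homo and 0.13 in het against −0.02 and −0.01 over all genes. Igfbp4, a secreted binding protein typical of naive CD4 T cells, was at 774 and 852 CPM in WT, 1392, 1516 and 1832 CPM in het and 2107 and 1183 CPM in homo libraries. All Y665F libraries were above WT, and the adjusted p passed (0.00885 in homo and 0.000307 in het, edgeR) while log2 fold changes of 0.89 ± 0.19 and 0.96 ± 0.16 stayed under the limit. Klf2, which keeps T cells quiescent and recirculating, was at 584 and 500.1 CPM in WT, 646, 705 and 934 CPM in het and 835 and 1077 CPM in homo, with 0.92 ± 0.18 in homo (edgeR adjusted p = 0.00185), again under the fold limit. Tcf7, a factor of naive and stem-like T cells, was at 736 and 796 CPM in WT, 621 to 705 CPM in the 3 het libraries and 702 and 668 CPM in homo libraries, each Y665F value below WT, with an edgeR adjusted p of 0.862 in homo.

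Of 26 memory and effector genes 17 were tested. Lgals1 rose in homo (0.298% of all genes were called higher) and Maf fell in het (0.172% were called lower), and the medians were 0.24 in homo and −0.14 in het. Crip1 and Itgb7 passed the adjusted p in homo under the fold limit. Itgb7, the beta chain of the gut-homing integrin, was at 202 and 225 CPM in WT, 285, 293 and 370.0 CPM in het and 361 and 374 CPM in homo libraries, all Y665F values above WT (log2 fold change 0.82 ± 0.17 in homo, edgeR adjusted p = 0.00885).

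Of 15 follicular helper genes 8 were tested. Icos and Maf fell in het, where 0.172% of all genes were called lower, and no member was called in homo (0.454% of all genes). The fitted values of all 8 were below 0 in each genotype, with medians of −0.95 in homo and −0.73 in het, while 52.1% and 51.6% of all genes tested were below 0. The het calls of Icos and Maf were lost without het replicate 1. Bcl6, the leading factor of the subset, was at 26.1 and 28.8 CPM in WT, 15.2, 7.52 and 0 CPM in het and 18.98 and 9.41 CPM in homo libraries, and did not pass (edgeR adjusted p = 0.681 and 0.572). Members with too few UMIs for the test included Cxcr5, the receptor that brings cells into B cell follicles. It was at 16.6 and 19.7 CPM in WT, 0.779, 1.25 and 17.6 CPM in het, and 0 and 2.35 CPM in homo, where the value of het replicate 3 is 1 UMI. Pdcd1, which encodes PD-1, was at 19.002 and 32.1 CPM in WT, 3.90, 11.3 and 0 CPM in het, and 0 and 2.35 CPM in homo. Pdcd1 was chosen after its values were seen.

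Of 12 genes of thymocytes and recent thymic emigrants 4 were tested, and Itm2a was the member called, lower in both genotypes (0.157% of all genes in homo and 0.172% in het). Sox4, a transcription factor of thymocytes, was at 40.4 and 46.9 CPM in WT, 17.9, 27.6 and 35.2 CPM in het and 18.98 and 11.8 CPM in homo libraries, each Y665F value below WT, and did not pass (edgeR adjusted p = 0.179 in homo and 0.0851 in het). Its values in het replicate 3 and homo replicate 1 are 2 and 1 UMIs. Of 19 checkpoint and costimulation genes 14 were tested, and Icos and Tnfrsf4, which encodes OX40, were called lower in het (0.172% of all genes). Of 24 homing genes 14 were tested, and S1pr4 was the member called, higher in homo (0.298% of all genes). Of the 13 regulatory T cell markers 8 were tested, with Izumo1r called lower in homo and Tnfrsf4 called lower in het, beside the same shares of 0.157% and 0.172%.

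The STAT5 genes, their kinases and the receptors upstream of them were not called. Stat5b was at 140.1 and 128 CPM in WT, 98.9, 95.3 and 70.5 CPM in het and 56.9 and 103 CPM in homo libraries. Every Y665F library was below WT, with 4 UMIs of Stat5b in het replicate 3 and 3 in homo replicate 1. The log2 fold changes of −0.39 ± 0.25 and −0.37 ± 0.16 did not pass (edgeR adjusted p = 0.75 in homo and 0.675 in het). None of the 11 JAK and STAT genes and none of the 7 tested common gamma chain receptors passed in any comparison. Of all genes 0.454% passed in homo against WT, 0.266% in het against WT and 0.0940% in homo against het. At such shares a count of 0 says little about lists this short. Of the 11 JAK and STAT genes 2 were above 0 in homo and 1 in het. Their median log2 fold changes were −0.26 and −0.25, against −0.02 and −0.01 over all genes. Il7r, the interleukin-7 receptor chain, was at 368 and 454 CPM in WT, 504, 321 and 299.5 CPM in het and 171 and 419 CPM in homo, with overlapping groups. Of 26 transcription factors and cytokines of helper lineages 5 were tested and 0 passed (edgeR), beside the same shares of all genes. Of 8 SOCS family genes 4 were tested, with Socs3 called lower in het (0.172% of all genes).

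Of 15 STAT5 targets that the study names 8 were tested and 0 were called, with medians of −0.19 in homo and −0.01 in het. Of all genes 0.454% were called in homo and 0.266% in het, so 0 of 8 says little about these targets. The list was drawn up by the study with its own data in view. Cish, the feedback inhibitor that STAT5 induces most directly, was at 14.3 and 27.97 CPM in WT, 33.5, 43.9 and 70.5 CPM in het and 56.9 and 39.97 CPM in homo libraries. All Y665F values lay above WT, with 4 UMIs of Cish in het replicate 3 and 3 in homo replicate 1. The log2 fold changes of 0.84 ± 0.43 and 0.70 ± 0.28 did not pass (edgeR adjusted p = 0.632 and 0.583). Socs3, an inhibitor of interleukin-6 type signals, was called lower in het with 45.1 and 142 CPM in WT and 50.6, 38.9 and 159 CPM in het, and without WT replicate 2 its log2 fold change was 0.18.

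Among 10 tested genes of the BCL2 and PIM survival group Pim1 was the member called, higher in homo (0.298% of all genes). Bcl2, the main survival factor of resting T cells, was at 114 and 132 CPM in WT, 217, 226 and 264 CPM in het and 266 and 212 CPM in homo libraries. All 5 Y665F libraries were above WT. The log2 fold changes of 0.84 ± 0.20 and 0.89 ± 0.15 passed the adjusted p (edgeR, 0.0308 in homo and 0.000191 in het) and stayed under the fold limit.

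Of 26 interferon-induced genes 21 were tested, with Irf7 and Rtp4 called higher in homo (0.298% of all genes) and medians of 0.35 in homo and 0.24 in het. Irf7 overlapped between WT and homo and was at −1.01 on the log2 scale without homo replicate 2 (edgeR adjusted p = 0.817), and Rtp4 was called under 6 of 17 alternatives and lost without either WT replicate or without homo replicate 2. Rtp4, a chaperone of membrane receptors, was at 42.8 and 46.9 CPM in WT, 61.9, 52.7 and 52.9 CPM in het and 75.9 and 103 CPM in homo libraries, in the order of the genotypes without overlap. This order rests on 3 UMIs of Rtp4 in het replicate 3 and 4 in homo replicate 1. The homo against het difference of Rtp4 did not pass (edgeR adjusted p = 0.636). Among 9 tested heat shock genes Hsph1 was called lower in homo (0.157% of all genes), though under only 4 of 19 alternatives. Dnaja1 passed the adjusted p in homo (edgeR, 0.0125) and stayed under the fold limit, with a log2 fold change of −0.97 ± 0.22. All 9 fitted values were below 0 in homo, with a median of −0.36, against 52.1% of all genes tested. None of 22 tested immediate early genes and none of 19 tested cell cycle genes was called in any of the 3 comparisons. Of all genes 0.454% were called in homo against WT, 0.266% in het against WT and 0.0940% in homo against het. In the same order 10, 2 and 9 of the 22 immediate early genes had an unadjusted p under 0.05 (edgeR). So did 1, 4 and 6 of the 19 cell cycle genes, and 533, 406 and 351 of all 6384 genes. Immediate early genes went both ways in homo, with 13 of 22 above 0. Ier2 rose in homo by a log2 fold change of 0.72 and passed the adjusted p (edgeR, 0.0291), under the fold limit.

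**Figure D2:**
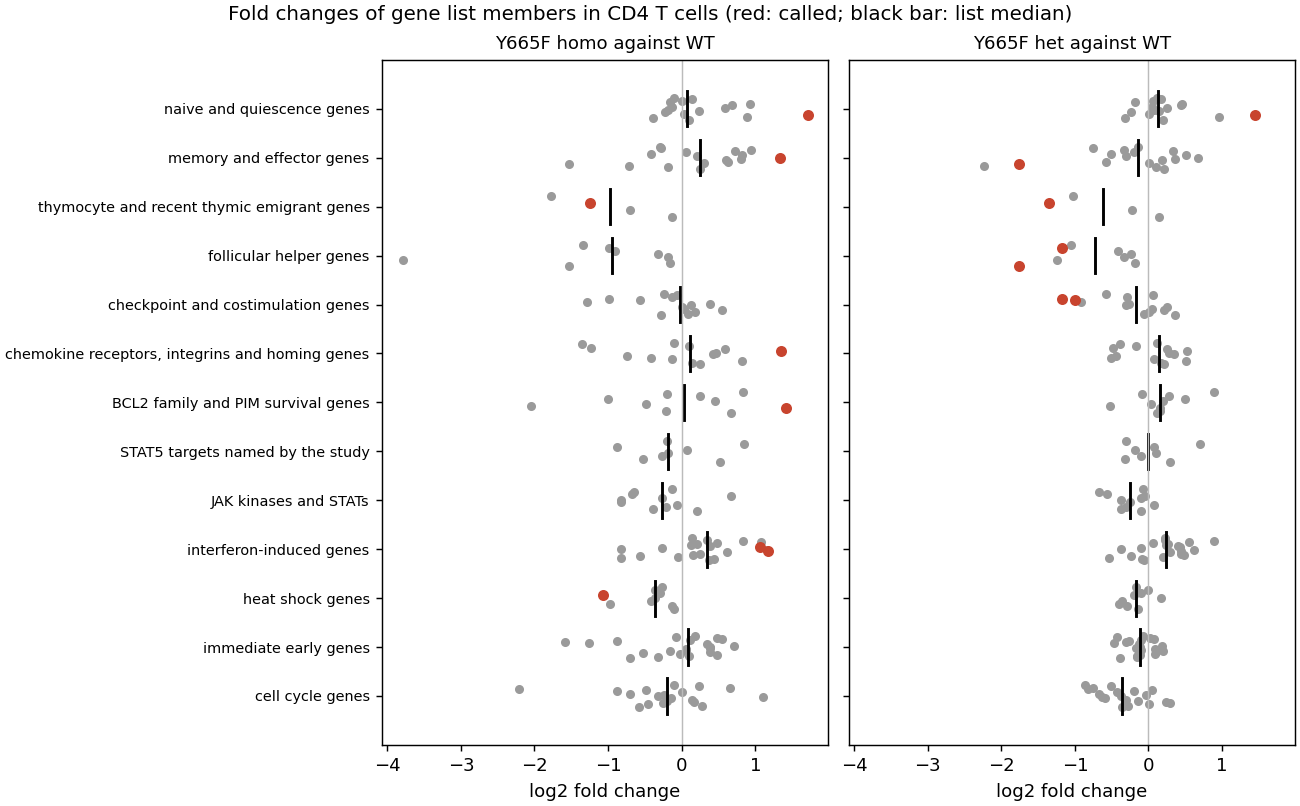
Log2 fold change of each tested member of the gene lists, for homo against WT on the left and het against WT on the right, with called genes in red and list medians as black bars. Most medians lie near 0, those of the thymocyte and follicular helper lists lie between −0.97 and −0.62, and each list holds at most 2 called members. Both panels share the WT libraries.

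Promoters of the called genes were searched for the STAT motif TTCNNNGAA, which reads the same on both strands. Of 32851 RefSeq promoters (GRCm38.p6, from 250 bases before to 50 bases after the gene start) 8.30% held it. Of 5136 tested genes 7.83% held it in at least 1 promoter. In homo 1 of 14 matched higher genes (Ift27) and 0 of 5 lower genes held it, and in het 0 of 6 higher and 1 of 6 lower genes (Socs3). A match is a run of letters and not a measured binding site.

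Whether CD8 T cells of the same libraries responded alike was tested by the interaction of gate and genotype, with the library as a block. Of 8837 genes 17 differed in their homo against WT effect (0.192%), with 545 at an unadjusted p under 0.05. Dapl1 rose in the CD4 gate, while the CD8 gate held 538 and 429 CPM in WT and 405 and 593 CPM in homo, and the difference of the effects was 1.40 ± 0.15 on the log2 scale (edgeR adjusted p = 1.64e-17). Coro2a differed by 2.55 ± 0.51 (edgeR adjusted p = 0.000638), with 14.7 and 26.2 CPM in WT, 31.96, 40.7 and 40.97 CPM in het and 40.4 and 20.8 CPM in homo CD8 cells. For Itm2a the difference was −1.90 ± 0.30 (edgeR adjusted p = 3.97e-07), and CD8 cells held 46.8 and 51.3 CPM in WT and 83.8 and 72.1 CPM in homo. In the CD8 gate homo and WT libraries overlapped for Dapl1 and Coro2a, and Itm2a lay higher in homo. The het libraries of Coro2a lay above WT there too, and its het effect did not pass the same test (difference 1.35, edgeR adjusted p = 0.120).

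Ccl5, a chemokine of cytotoxic and memory T cells, was at 277 and 212 CPM in WT and 2034 and 2855 CPM in homo CD8 cells and at 95.01 and 13.98 CPM and 56.9 and 18.8 CPM in the CD4 gate, a difference of −4.25 ± 0.44 (edgeR adjusted p = 3.09e-18). Trat1, an adaptor of the T-cell receptor complex, was at 23.4 and 26.5 CPM in WT and 5.98 and 6.67 CPM in homo CD8 cells and stayed between 94.6 and 114 CPM in WT and homo CD4 libraries (difference 2.14 ± 0.42, edgeR adjusted p = 0.000342). Rflnb, an actin regulator chosen after its values were seen, was at 196 and 232 CPM in WT and 114 and 115 CPM in homo CD8 cells, and at 264 and 235 CPM in WT and 379.6 and 285 CPM in homo CD4 libraries, where homo lay above WT with a log2 fold change of 0.33 ± 0.19 that was not called (edgeR adjusted p = 0.685). Bcl2, Pim1 and Lgals1 were not among the 17, and their log2 fold changes in homo CD8 cells were 0.94, 1.09 and 1.22. With edgeR 0 genes were called without homo replicate 2 (465 at an unadjusted p under 0.05) and 3 without WT replicate 2. DESeq2 called 4.

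**Figure D3:**
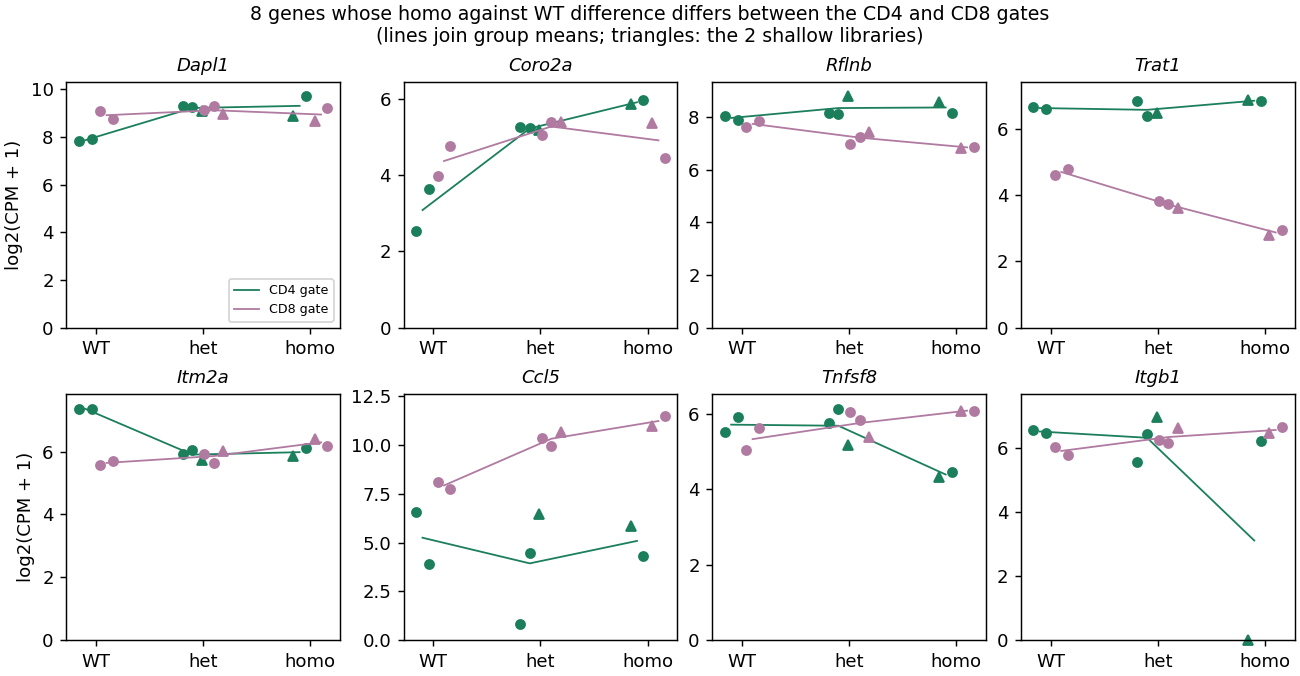
Levels of 8 genes called in the test of the difference between gates, as log2(CPM + 1) in the CD4 gate (green) and the CD8 gate (purple) of each LN library, with lines joining group means. Homo lies above WT in the CD4 gate and overlaps it in the CD8 gate for Dapl1 and Coro2a, and lies on opposite sides of WT in the 2 gates for Itm2a. The Itgb1 point at 0 is homo replicate 1, which held no UMI of it.

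The same test against Foxp3 cells (220 in all, 2 and 18 in the homo libraries) called 6 of 2107 genes (0.285%), with 144 at an unadjusted p under 0.05. In homo Foxp3 cells these genes held 0 to 3 UMIs in all. Lgals1 had 1 UMI of 21404 in homo and 64 of 118070 in WT Foxp3 cells, a ratio of 0.0862 (exact 95% interval 0.00215 to 0.498, counting error only). With edgeR 0 were called without WT replicate 1 (125 at an unadjusted p under 0.05) and 0 without homo replicate 2 (65), and 1 was called without WT replicate 2 or without homo replicate 1. DESeq2 called 0, with 38 at an unadjusted p under 0.05.

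The abundance of the gate was compared over libraries after thinning each barcode to 300 UMIs, since a gate that needs a Cd4 UMI depends on depth. Thinning kept 4280 of 5253 barcodes of het replicate 3, 4624 of 5468 of homo replicate 1 and all barcodes of the others. The gate then took 1.34% and 1.48% of WT barcodes, 1.597%, 1.56% and 1.29% of het barcodes and 1.19% and 1.71% of homo barcodes. Groups overlapped, and a two-sided exact permutation test of the order WT, het, homo (Jonckheere-Terpstra statistic) gave p = 0.876. Without thinning, the shares were 5.59% and 9.26% in WT libraries, 15.9%, 9.58% and 2.23% in het libraries, and 2.07% and 7.67% in homo libraries, lowest in the shallow ones (exact permutation p = 0.648).

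For each CD8 gate cell there were fewer CD4 gate cells in every Y665F library than in WT after thinning. The ratio was 0.316 and 0.226 for WT, 0.174, 0.190 and 0.106 for het, and 0.0923 and 0.195 for homo. Het and homo overlapped, and the exact permutation test gave p = 0.152, where 0.00952 is the smallest that the design allows. The exact permutation p was 0.0333 without homo replicate 2, 0.433 without either WT replicate or without homo replicate 1, and 0.178 without any of the het replicates in turn. Without both shallow libraries homo differed from WT by −0.0760, against −0.127 with them (exact permutation p = 0.467). Unthinned ratios were 0.328 and 0.359 for WT, 0.403, 0.276 and 0.121 for het, and 0.0960 and 0.237 for homo (exact permutation p = 0.152), so that het replicate 1 then lay above WT. The shallow libraries had the lowest ratios either way.

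**Figure D4:**
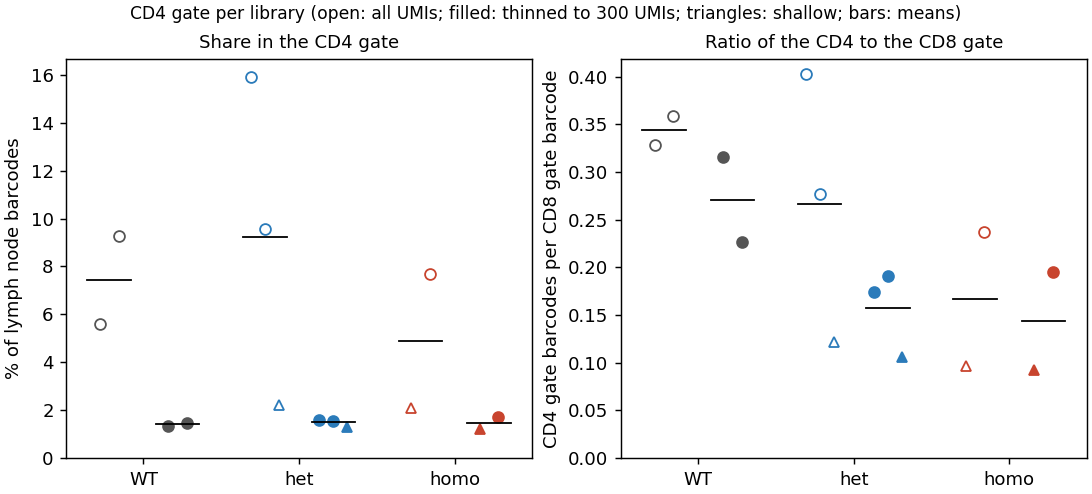
Share of LN barcodes in the CD4 gate in percent (left) and number of CD4 gate barcodes per CD8 gate barcode (right) in each library. Open symbols use all UMIs, filled symbols barcodes thinned to 300 UMIs, triangles mark the shallow libraries and bars group means. Thinned shares lie between 1.19% and 1.71% in all genotypes, and thinned ratios are lower in the 5 Y665F libraries than in WT.

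TCR chains were read in the same cells, and both chains were found in 78.0% to 90.3% of gate cells. Of 2587 cells with both chains, few shared a clonotype: 14 clonotypes had 2 or more cells, and the largest had 3. Cells in such clonotypes were 5 of 327 and 12 of 710 in WT libraries, 0 of 671, 10 of 344 and 0 of 98 in het libraries, and 0 of 102 and 2 of 335 in homo libraries. Scaled to 98 cells a library, these shares became 0.647% and 0.231% for WT, 0%, 0.822% and 0% for het, and 0% and 0.173% for homo. Both homo libraries lay below both WT libraries, het spanned the others, and the two-sided exact permutation test of the order gave p = 0.4, where 0.0286 is the smallest that these values allow. In the CD8 gate of the same libraries, unscaled shares ran from 0.195% to 4.37%.

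The largest clonotype came from WT replicate 1 and joined TRAV12N-1 with TRAJ17 and a beta chain of TRBV12-2+TRBV13-2 with TRBJ2-4. Its CDR3 sequences are shown as those of the only clonotype with 3 cells.
CDR3 alpha: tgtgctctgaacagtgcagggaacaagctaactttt
CDR3 beta: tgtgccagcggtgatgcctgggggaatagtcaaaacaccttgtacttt
No clonotype of the gate was seen in 2 libraries or in the CD8 gate. The alpha chain of invariant natural killer T cells (TRAV11 with TRAJ18) and that of mucosal-associated invariant T cells (TRAV1 with TRAJ33) were found in 0 of the 2587 cells.

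Usage of beta chain V segments was compared on the number of cells, 111 to 799 a library with a beta chain. Of 18 tested segments 0 passed in homo against WT (edgeR, smallest adjusted p = 0.721), and 0 had an unadjusted p under 0.05. TRBV3 was used by 11.5% and 7.76% of WT cells, 9.80%, 12.7% and 9.91% of het cells, and 11.7% and 11.1% of homo cells. TRBV10 was used by 5.19% and 5.13% of WT cells, by 4.97%, 4.66% and 3.60% of het cells, and by 2.70% and 3.98% of homo cells, all Y665F values below WT. Its exact permutation p of 0.0286 became 0.514 when adjusted over the 18 segments. Both segments were chosen after their values were seen.

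**Figure D5:**
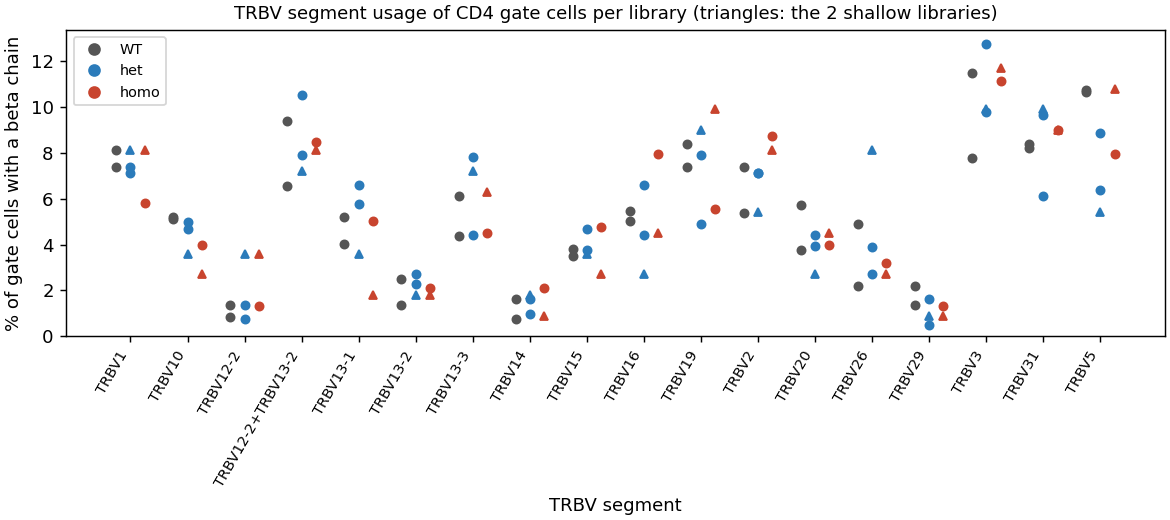
Percent of gate cells with a beta chain that use each of the 18 tested TRBV segments, for each LN library, with colours for genotypes and triangles for the shallow libraries. The genotypes overlap for most segments, and TRBV10 is lower in all 5 Y665F libraries than in WT.

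The spleen gave the same gate in 1 library each of WT, Y665F and Y665H, with 3295 gate cells. Differences there have no replicate check and no test, and levels are compared within the spleen only. Over 6375 genes the median log2 ratio of Y665F to WT was −0.14, and 28.8% of genes were higher in Y665F. Of the 19 genes called higher in LN homo cells 15 were higher in spleen Y665F, and of the 10 called lower 4 were higher, while 7 of these 10 lay above the median ratio. All 6 genes called higher in LN het cells were higher, and of the 11 called lower 4 were (Icos, Maf, Socs3 and Tnfrsf4). Markers of other cells also differed between the spleen libraries. The 13 regulatory T cell markers summed to 400.3 CPM in WT, 812 CPM in Y665F and 518 CPM in Y665H, with 10 of 13 higher in Y665F than in WT. Among them Il2ra was at 15.3 CPM (12.6 to 18.5) in WT and 40.01 CPM (34.5 to 46.2) in Y665F, and Tnfrsf4 at 22.1 CPM (18.8 to 25.9) and 82.6 CPM (74.5 to 91.3). The 19 B cell markers were all lower in Y665F, with sums of 1121 CPM in WT, 401 CPM in Y665F and 1048 CPM in Y665H. The 16 myeloid and dendritic cell markers summed to 270.3 CPM in WT, 1794 CPM in Y665F and 1381 CPM in Y665H, with 6 higher and 8 lower in Y665F than in WT. For cytotoxic markers the sums were 350.5 CPM in WT, 498 CPM in Y665F and 432 CPM in Y665H, for NK and NKT cell markers 120.03, 180.5 and 201 CPM, and for gamma-delta T cell markers 15.5, 23.4 and 12.03 CPM. Most members of these lists were lower in Y665F than in WT, with 4 higher and 9 lower, 2 and 7, and 3 and 4. The cytotoxic marker Ccl5 went from 172 CPM in WT to 321 CPM in Y665F, and the NK marker Il2rb from 54.6 to 140 CPM. The part of other cells in the spleen values given next was not tested.

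Dapl1 was at 249.5 CPM (238 to 261) in spleen WT cells, 550.3 CPM (529 to 572) in Y665F cells and 115 CPM (107 to 122) in Y665H cells, with exact Poisson 95% intervals that cover counting error only. The Y665F library was thus above WT and the Y665H library below it. Myo6 measured 14.8 CPM (12.1 to 17.9) for WT, 128 CPM (118 to 139) for Y665F and 10.9 CPM (8.71 to 13.5) for Y665H, and Bcl2 334 CPM (321 to 348), 837 CPM (811 to 864) and 222 CPM (212 to 233). Bcl2 followed the order of Dapl1, while the Myo6 intervals of WT and Y665H overlapped. Itm2a was low in Y665F cells alone, at 21.9 CPM (17.9 to 26.6), against 61.3 CPM (55.7 to 67.3) in WT and 60.9 CPM (55.6 to 66.6) in Y665H. Izumo1r, lower in LN homo cells, went the other way, at 177 CPM (165 to 189) in Y665F, 134 CPM (126 to 143) in WT and 189.5 CPM (180.0 to 199) in Y665H. Tnfsf11 was at 8.39 CPM (5.97 to 11.5) in Y665F and 6.13 CPM (4.45 to 8.23) in WT, with overlapping intervals.

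Of the SOCS family genes tested in LN, Cish and Socs1 were higher in the Y665F spleen library than in both others. Cish was at 18.5 CPM (15.5 to 21.9) in WT, 102 CPM (92.99 to 112) in Y665F and 15.7 CPM (13.1 to 18.7) in Y665H, and Socs1, another inhibitor of cytokine receptors, at 40.7 CPM (36.1 to 45.6), 105 CPM (95.9 to 115) and 45.3 CPM (40.8 to 50.3). Socs3 was at 31.5 CPM (27.5 to 35.9) in WT, 53.3 CPM (46.9 to 60.4) in Y665F and 55.1 CPM (50.05 to 60.5) in Y665H, and the intervals of Socs4 overlapped between WT and Y665F. In LN Socs1 was at 119 and 169 CPM in WT and 133 and 127 CPM in homo libraries, with overlapping groups. Stat5b itself was at 98.4 CPM (91.3 to 106) in spleen WT, 70.3 CPM (62.9 to 78.4) in Y665F and 94.2 CPM (87.6 to 101) in Y665H.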

How the data were processed

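Single-cell expression and TCR libraries of LN and expression libraries of spleen were used; bone marrow was not used here. The deposited values are UMI counts per gene and barcode, and UMI counts per TCR contig, which the authors made with Cell Ranger (5.0.0 for LN and 6.0.0 for spleen per the file headers) on GRCm38. The labels name a 3′ kit and the methods of the study a 5′ kit. TCR and expression libraries were joined by genotype and replicate number of the titles, and by barcode.

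UMIs of gate cells were summed per library. Genotypes were compared with edgeR 4.0.16 (quasi-likelihood test, TMM, filterByExpr, limma 3.58.1, R 4.3.3) without covariates, at the thresholds that the study gives for bulk RNA. With 7 libraries in 3 groups, edgeR p-values and SEs rest largely on spread shared across genes. Each SE is the estimate over the root of its F statistic. Exact tests used Python 3.11.15 and scipy 1.17.1. DESeq2 1.42.0, filters, narrower gates, thinning and leaving out libraries were alternatives. Doublets stayed in the gate, and 1 alternative left out cells above 3 times the median UMIs or with 2 or more beta chains. Coordinates came from an annotation that matched 32158 of 32285 genes. The edgeR script was checked on simulated counts.

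The gate and gene lists were chosen with earlier results of these data known. Named were Stat5a, Stat5b and gate genes, called genes without overlap with the largest changes (up to 14 higher and 10 lower in homo, 5 and 3 in het), genes called in homo against het, called members and up to 4 others of each list, and 6 genes of each test between gates. One result of a test between gates is not reported here.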

Additional observations from a re-analysis of the deposited data

Results flagged for a closer look

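The homo against WT effect differed between the CD4 and CD8 gates for 17 genes by the interaction test of edgeR. Among them the differences (CD4 minus CD8, log2) were −4.81 for Cxcr5, −4.25 for Ccl5, −2.31 for Ube2c, 2.14 for Trat1 and 2.55 for Coro2a. Cxcr5 rested on 0 and 1 UMI in the homo libraries of the CD4 gate. Ube2c, a gene of cell division, was at 0 and 66.6 CPM in the WT libraries of the CD4 gate and at 0 and 10.8 CPM in CD8 cells, so its WT replicates differed from each other.

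Between the CD4 and Foxp3 gates the effect differed by 3.32 for S100a6, 3.64 for Capg, 4.96 for Lgals1, 10.8 for Hist1h1b, 10.9 for Hist1h1e and 11.3 for Hist1h2ae (log2, edgeR). The homo Foxp3 cells held 0 UMIs of the 3 histone genes and 1 to 3 UMIs of the others, so these fitted values depend on the prior count or on few UMIs and measure no size. S100a6, a calcium-binding protein of activated cells, had 3 UMIs in homo and 79 in WT Foxp3 cells, a ratio of 0.209 (exact 95% interval 0.0423 to 0.635, counting error only). Capg, an actin-capping protein, had 2 and 87 UMIs, a ratio of 0.127 (0.0151 to 0.472).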

How the results depend on the processing

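Counts of called genes depended on the tool and the gate. Homo against WT gave 29 genes, and 2 with DESeq2, 15 with the replicate block, 7 with Cd4 at 2 or more UMIs, 17 without Il2ra, Ikzf2 or Ctla4 UMIs, 14 without UMIs of other cell types, 3 with thinned barcodes, and 2 to 41 with 1 library left out. Het against WT gave 17, and under the same settings 1, 9, 8, 7, 5 and 1, then 47 with no filter on low counts and 6 to 41 with 1 library left out. Homo against het gave 6, and under those settings 0, 2, 1, 1, 1 and 0, then 11 with no filter, 3 without possible doublets and 0 to 11 with 1 library left out. The CD8 comparison gave 17, 4 with DESeq2 and 0 to 22 with 1 library left out. The Foxp3 comparison gave 6, 0 with DESeq2, 0 with no filter and 0 to 6 with 1 library left out. The causes were not tested.

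Deviations of same-numbered replicates from their group means correlated at −0.035 to 0.032 over 6 pairs. In groups of 2 libraries these deviations mirror each other, so the pairs are not separate checks. Whether same-numbered replicates share a litter or day was not tested. The labels do not say what the number marks, and the replicate block joins samples by that number.

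The difference in gate share (homo minus WT, percentage points) was 0.0427 after thinning to 300 UMIs, −0.405 at 500 UMIs, −2.56 without thinning, −3.09 at 500 genes or more, and −0.220 to 0.305 with 1 library left out (−0.0238 without WT replicate 1). The ratio to CD8 cells differed by −0.179 to −0.0760 with 1 library left out, with exact permutation p from 0.0333 (without homo replicate 2) to 0.433, and p = 0.467 without both shallow libraries.

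Of 453 alternative values of 25 genes named in homo, 305 stayed called and 2 reversed, Hist1h1e (−0.94 to 1.65 with 1 library left out) and Irf7 (−1.01 to 1.25). In het 178 of 246 stayed called and 1 reversed, Socs3 (−1.41 to 0.18). Without homo replicate 2 the median of all genes was −0.27. Depth limits genes under about 20 CPM in the shallow libraries, where 1 UMI is worth 17.6 and 18.98 CPM.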
